A study of Mus musculus with 6 samples.

Results

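Retinoic acid is made and broken down inside cells by a short enzyme chain, and 10 genes of that chain and of its response were followed here among the 22026 gene symbols measured in choroid endothelial cells (ECs). They were chosen by name for their known roles, and all 10 were found in the expression tables. Choroid ECs line the vessels behind the retinal pigment epithelium (RPE). RNAseq was carried out on ECs of mice at postnatal day 5 (P5) and postnatal day 30 (P30), from 3 isolations per age with the RPE/choroid tissue of 7 animals pooled in each. The paper names the strain, 129/B6, with the P30 animals. Before flow cytometry, cells were marked in the living animal through VE-Cadherin, an adhesion molecule of endothelium. No other treatment or genetic change is described at either age. Handling differed, as P5 mice were anaesthetized by cooling and received a smaller antibody dose than P30 mice. P30 animals were adults of both sexes, and the sexes in each pool were not analysed here.

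Vitamin A circulates as retinol, which Rdh10 oxidizes to retinal and Dhrs3 reduces back. The retinaldehyde dehydrogenases Aldh1a1, Aldh1a2 and Aldh1a3 then turn retinal into retinoic acid, which Crabp1 and Crabp2 bind in the cytoplasm, the receptors Rarb and Rarg sense in the nucleus, and Cyp26b1 degrades. In the eye, retinoic acid is formed in the choroid as well as in the retina and RPE, and in birds the choroid has been linked to the control of eye growth through it.

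The 3 genes that make retinoic acid were higher in the P30 than in the P5 isolations of sorted choroid ECs. No difference passed the test for the receptors, for Crabp2 or for the degrading enzyme. Which cells in the isolations the RNA came from was not tested. Levels are FPKM, fragments scaled to transcript length and library size, to which the authors added GC and upper quartile normalization. Comparisons between genes and between isolations rest on that scaling. Differences between ages were tested with limma on log2(FPKM + 1) over the 12481 genes whose mean FPKM reached 5 at either age. Differential expression required both an adjusted p below 0.01 and mean FPKM + 1 changed 2-fold or more. By these limits 5.89% of all genes tested rose towards P30 and 5.82% fell. Of the 10 retinoic acid genes, 9 were tested, 3 rose and 0 fell, with 6 at a higher and 0 at a lower level at P30 by an unadjusted p under 0.05 in limma, beside 20.7% and 28.8% of all genes tested. The median log2 fold change of the 9 was 0.93, beside -0.10 over all genes tested. Aldh1a1 and Aldh1a3 had a mean below the minimum at P5 and entered the test only through P30, so they could only have been found higher at P30, and the count is not evidence of a common direction.

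**Figure D1:**
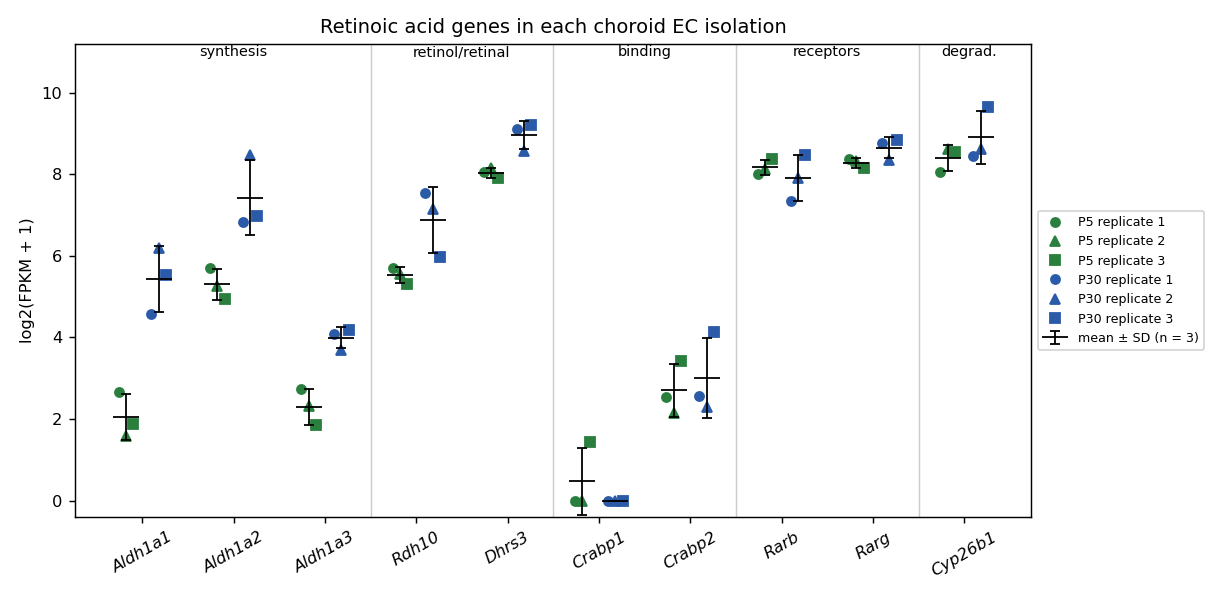
Level of each of the 10 genes as log2(FPKM + 1), with 1 point per isolation (green, P5; blue, P30; the symbol gives the replicate) and the mean ± SD of 3 isolations on that scale, grouped by role. The P30 points lie above all P5 points for Aldh1a1, Aldh1a2, Aldh1a3, Rdh10 and Dhrs3, and the ages overlap for the other genes.

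Aldh1a1 (mm9 chromosome 19, 20676451 to 20717952) rose most on the log2 scale among the 9. The P5 isolations had an FPKM of 5.35, 1.98 and 2.70 in the order of replicates 1 to 3, used throughout, and the P30 isolations one of 22.68, 71.80 and 45.34. The lowest P30 isolation was 4.24 times the highest P5 isolation. The mean went from 3.34 ± 1.77 to 46.6 ± 24.6 (SD, n = 3 each), a log2 fold change of 3.39 (SE 0.46, 95% interval 2.30 to 4.47, adjusted p = 0.00178 in limma). In RNA of sorted cells, a change in the amount per cell and a change in how many cells of a type were collected cannot be told apart.

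Aldh1a2 (chromosome 9, 71063596 to 71144050) was the retinaldehyde dehydrogenase with the highest level at both ages. Its FPKM was 51.06, 37.55 and 29.65 at P5, and 112.36, 356.10 and 124.97 at P30. P30 replicate 2 stood above the other P30 isolations, and each P30 isolation was at least 2.20 times the highest P5 value. From 39.4 ± 10.8 at P5 the mean reached 198 ± 137 at P30 (SD, n = 3 each), with a log2 fold change of 2.12 (SE 0.43, 95% interval 1.12 to 3.13, adjusted p = 0.00835 in limma).

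Aldh1a3 (chromosome 7, 73535778 to 73572403) had an FPKM of 5.69, 3.97 and 2.61 at P5 and of 15.92, 12 and 17.22 at P30. Here the P30 isolations lay close together, within 1.44-fold of each other, and none overlapped P5. Means were 4.09 ± 1.54 and 15.0 ± 2.72 (SD, n = 3 each), and the log2 fold change was 1.69 (SE 0.33, 95% interval 0.92 to 2.46, adjusted p = 0.00711 in limma). As the ages did not overlap for any of the 3 dehydrogenases, leaving out an isolation could not reverse their direction. With each isolation left out in turn, Aldh1a3 missed the limit of 0.01 in 6 of 6 fits (adjusted p between 0.0120 and 0.0324 in limma). Aldh1a2 missed it in 4 of 6 (up to 0.0415 in limma) and Aldh1a1 in 1 of 6 (0.0123 in limma without P5 replicate 3).

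**Figure D2:**
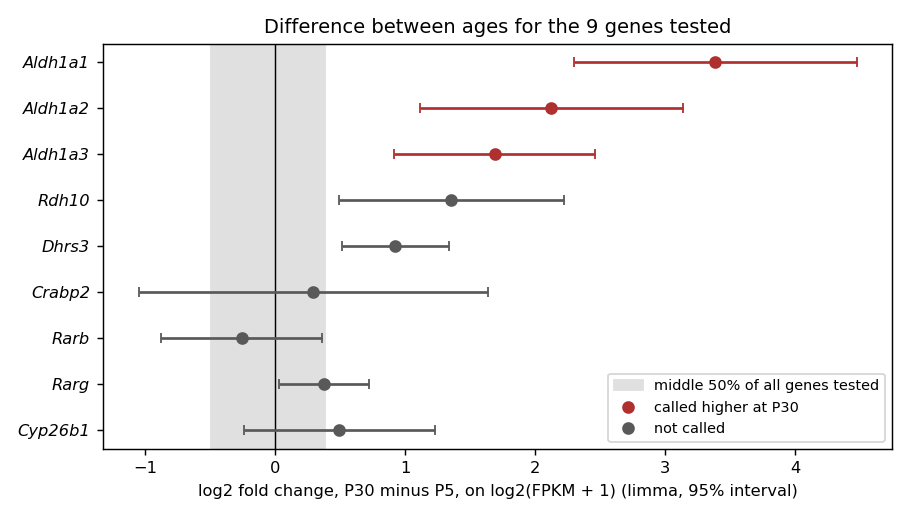
Log2 fold change, P30 minus P5, on log2(FPKM + 1) for the 9 genes tested, with the 95% interval from limma; red marks differentially expressed genes and the grey band spans the middle 50% of all genes tested. The intervals of Aldh1a1, Aldh1a2, Aldh1a3, Rdh10 and Dhrs3 lie above the band, and those of Crabp2, Rarb, Rarg and Cyp26b1 reach into it.

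The summed FPKM of the 3 dehydrogenases was 62.1, 43.5 and 34.96 in the P5 isolations and 150.96, 439.9 and 187.53 in the P30 isolations. Aldh1a2 made up the largest share of this sum in every isolation, between 82.2% and 86.3% at P5 and between 66.6% and 81.0% at P30. The share of Aldh1a1 was 8.62%, 4.55% and 7.72% at P5 and 15.0%, 16.3% and 24.2% at P30. Thus Aldh1a1 took a larger and Aldh1a2 a smaller share in every P30 isolation than in any P5 isolation. Aldh1a3 ranged from 7.47% to 9.16% at P5 and from 2.73% to 10.5% at P30, and overlapped. As a log2 ratio of FPKM + 1, Aldh1a2 to Aldh1a1 went from 3.26 ± 0.38 (SD, n = 3) to 2.0 ± 0.48 (SD, n = 3), a difference of -1.26 at p = 0.1 (exact two-sided permutation test), the smallest p that 3 isolations per age allow. It was the only one of 4 ratios compared between related genes whose values did not overlap between ages.

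**Figure D3:**
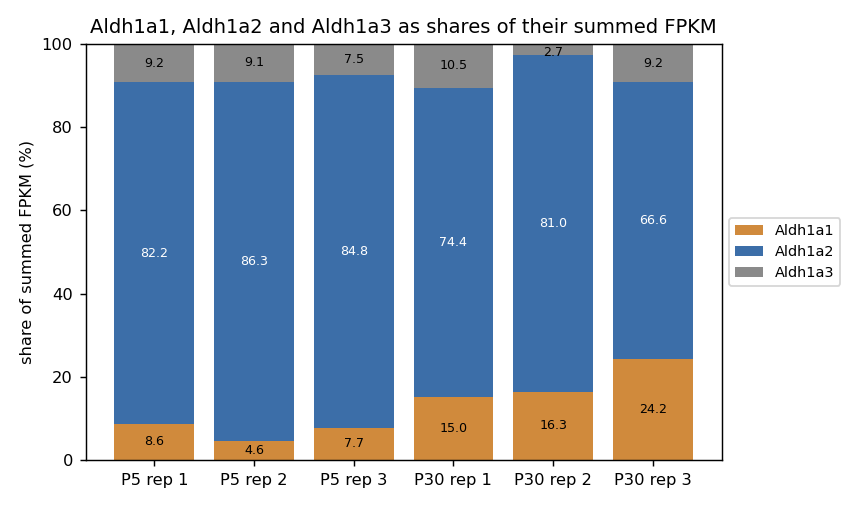
Share of Aldh1a1, Aldh1a2 and Aldh1a3 in their summed FPKM, in percent, with 1 bar per isolation. The Aldh1a1 share is 4.55% to 8.62% in the P5 bars and 15.0% to 24.2% in the P30 bars.

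A near-identical gene lies beside Aldh1a1 on chromosome 19, and reads could be split between the pair. Aldh1a7 (20767443 to 20802052) shares 91.6% of its coding bases with Aldh1a1, with a longest identical run of 100 bases, whereas the 3 dehydrogenases share between 67.4% and 68.9% with each other and no run over 26 bases. All P5 isolations list Aldh1a7 at 0, and the P30 isolations have 0.61, 3.97 and 2.08, between 2.69% and 5.53% of the Aldh1a1 value. How the reads of the pair were assigned was not tested. None of the 10 genes overlaps another gene of the mm9 annotation.

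The pair of enzymes that set the balance of retinol and retinal also separated by age, with smaller differences. Rdh10 (chromosome 1, 16095855 to 16123815) had an FPKM of 51.38, 46.48 and 38.63 at P5 and of 184.28, 141.05 and 61.60 at P30. P30 replicate 3 was only 1.20 times the highest P5 isolation. Means were 45.5 ± 6.43 and 129 ± 62.2 (SD, n = 3 each), and its log2 fold change of 1.35 (SE 0.37, 95% interval 0.49 to 2.22) did not pass the limit of 0.01 (adjusted p = 0.0251 in limma). Without P30 replicate 3 it did (1.81, adjusted p = 0.00103 in limma).

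Dhrs3 (chromosome 4, 144482730 to 144518112), which returns retinal to retinol and is itself known as a gene induced by retinoic acid, was already high at P5. Its FPKM was 266.10, 282.70 and 238.12 at P5 and 550.62, 378.42 and 592.17 at P30, with no overlap. Means were 262 ± 22.5 and 507 ± 113 (SD, n = 3 each). The log2 fold change of 0.93 (SE 0.18, 95% interval 0.52 to 1.33) passed the limit on p (adjusted p = 0.00631 in limma) but not that on size, at 1.93-fold in mean FPKM + 1. It passed both without P30 replicate 2 (1.12, adjusted p = 0.00148 in limma) and when the isolations were scaled to equal medians (1.01, adjusted p = 0.00788 in limma).

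The log2 ratio of Dhrs3 to Rdh10 went from 2.51 ± 0.14 to 2.08 ± 1.01 (SD, n = 3 each; difference -0.43, p = 0.4, exact two-sided permutation test). Its spread was wider at P30, where replicate 3 had the highest Dhrs3 and the lowest Rdh10. At an adjusted p under 0.05 with no limit on size, 5 of the 9 genes rose and 0 fell, beside 16.1% and 22.4% of all genes tested. For 5 of the 9 the lowest P30 value exceeded the highest P5 value, as it did for 22.0% of all genes tested, and for 0 the P30 values all lay below, as they did for 33.0%.

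The binding proteins were the least expressed of the genes. Crabp1 (chromosome 9, 54612555 to 54620917) was listed at 0 in 5 of the 6 isolations and at 1.69 in P5 replicate 3, and was not tested. Crabp2 (chromosome 3, 87752588 to 87757298), which is known to carry retinoic acid to the nucleus, had an FPKM of 4.84, 3.41 and 9.75 at P5 and of 4.96, 3.91 and 16.42 at P30. Replicate 3 was the highest isolation at each age, and the ages overlapped. The log2 fold change was 0.29 (SE 0.57, 95% interval -1.05 to 1.63, adjusted p = 0.707 in limma) and turned to -0.27 without P30 replicate 3, so a difference of 2-fold in either direction lies within its interval. With Crabp1 at 0 in nearly all isolations, the ratio of the pair carried little beyond Crabp2 (difference 0.77 in log2 of FPKM + 1, p = 0.2, exact two-sided permutation test).

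Both receptors were among the most expressed of the 10 genes at both ages. Rarb (chromosome 14, 17263356 to 17651381) had an FPKM of 254.80, 281.87 and 331.04 at P5 and of 162.02, 241.17 and 355.38 at P30. The P30 isolations held both the lowest and the highest value of the 6. Its log2 fold change was -0.26 (SE 0.27, 95% interval -0.88 to 0.36, adjusted p = 0.464 in limma), and 0.03 without P30 replicate 1.

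Rarg (chromosome 15, 102065369 to 102087948) had an FPKM of 331.45, 318.84 and 283.31 at P5 and of 435.14, 326.25 and 461.24 at P30. Only P30 replicate 2 fell within the P5 range. From 311 ± 25 (SD, n = 3) to 408 ± 71.6 (SD, n = 3), the log2 fold change was 0.38 (SE 0.15, 95% interval 0.03 to 0.72, adjusted p = 0.0795 in limma). The log2 ratio of Rarg to Rarb went from 0.11 ± 0.31 to 0.74 ± 0.59 (SD, n = 3 each), with overlap (difference 0.63, p = 0.2, exact two-sided permutation test). Rarb and Rarg share 72.4% of aligned coding bases, with no identical run over 23 bases.

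Rarb is a textbook target of its own ligand, through a retinoic acid response element made of a direct repeat of 6-base units 5 bases apart (DR5). Promoter windows of RefSeq (assembly GRCm38.p6, 250 bases before to 50 after a start) were searched on both strands for direct repeats with spacers of 1, 2 or 5 bases, in which each unit was AGGTCA or AGTTCA or GGGTCA or GGTTCA, or one of these words with G in place of C. The 3 spacings were found in 0.609%, 0.472% and 0.323% of 32851 windows. Windows of Aldh1a3, Rdh10 and Crabp2 were not searched. Of 11 windows of the other 7 genes, 1 held such a repeat, the DR5 of Rarb at chr14:16575513-16575529 (minus strand, window chr14:16575427-16575726), from 53 to 37 bases before the start. The same bases occur once in mm9 chromosome 14, at 17408027 to 17408043, inside an intron of the longer Rarb transcripts. The stretch around it is shown with that of Cyp26a1, a gene for another retinoic acid hydroxylase, whose window (chr19:37697558-37697857, plus strand) held a DR5 on the opposite strand from 32 to 16 bases before the start. Capitals mark the repeat, and each line reads along the gene's strand.
Rarb: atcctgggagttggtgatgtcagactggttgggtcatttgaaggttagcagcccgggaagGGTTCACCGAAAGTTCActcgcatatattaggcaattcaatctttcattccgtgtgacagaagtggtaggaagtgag
Cyp26a1: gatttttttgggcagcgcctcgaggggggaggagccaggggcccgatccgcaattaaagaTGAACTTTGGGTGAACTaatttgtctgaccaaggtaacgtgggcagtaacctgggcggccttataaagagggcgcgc
On its own strand the Rarb repeat has the units GGTTCA and AGTTCA, and that of Cyp26a1 has AGTTCA at both places. The levels of Rarb are given above, and Cyp26a1 had an FPKM of 0.80, 1.34 and 4.89 at P5 and of 0, 1.13 and 13.1 at P30, too low to be tested. A match of letters does not show binding, and the windows hold only part of each gene's regulatory sequence.

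Cyp26b1 (chromosome 6, 84521938 to 84543740), the enzyme that clears retinoic acid, had the highest mean of the 10 genes at both ages, at percentile 96.6 of all genes at P5 and 97.8 at P30. Its FPKM was 263.72, 395.25 and 376.93 at P5 and 352.07, 390.37 and 799.16 at P30. P30 replicate 3 stood apart above the other 5 isolations, which overlapped. Means were 345 ± 71.2 and 514 ± 248 (SD, n = 3 each), and the log2 fold change of 0.49 (SE 0.31, 95% interval -0.24 to 1.23) did not pass the test (adjusted p = 0.246 in limma). Of the other members of its family, Cyp26c1 was listed at 0 in every isolation except P30 replicate 3, at 0.95.

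Ranked by mean FPKM, P5 choroid ECs had Cyp26b1, Rarg, Rarb and Dhrs3 at the top, and their values overlapped from one to the next. A gap followed to Rdh10 and Aldh1a2, and another to Crabp2, Aldh1a3 and Aldh1a1, in each case with overlap between neighbours. At P30 the order ran from Cyp26b1 through Dhrs3, Rarg, Rarb, Aldh1a2 and Rdh10 to Aldh1a1, and no neighbours among these were separated. Aldh1a2 had moved from percentile 66.5 to percentile 92.2 of all genes, and its P30 values overlapped those of Rarb. Aldh1a3 and Crabp2 lay below without separation from each other, and Crabp1 was last at both ages.

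The P30 isolations spread more widely than the P5 isolations on the log2 scale for each tested gene except Aldh1a3, and they did so in different orders. Aldh1a1 and Aldh1a2 were highest in P30 replicate 2 and lowest in replicate 1. Rdh10 was highest in replicate 1 and lowest in replicate 3. Aldh1a3, Dhrs3, Crabp2, Rarg, Rarb and Cyp26b1 were all highest in replicate 3.

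Markers of other cells of the tissue moved with age and with some of these orders. The 9 endothelial markers had a summed FPKM of 20278 to 21394 at P5 and of 27997 to 34157 at P30, led by the fenestral protein Plvap (4692 to 11590 in mean FPKM), none was at 0, and Plvap was the 1 of 9 that was differentially expressed. The gene of the sorting antigen, Cdh5, was lower at P30 by less than 2-fold (2971 ± 95.4 to 1885 ± 52.4, SD, n = 3; -0.66, adjusted p = 0.00205 in limma). The 8 fibroblast markers, led at P30 by Dcn, summed to between 745 and 1219 at P5 and to 1949, 4610 and 2516 at P30 in replicate order, and the 7 pericyte markers, led by Rgs5, to between 497 and 1765 at P5 and to 1872, 6290 and 3857 at P30. Both sums ran in the order of Aldh1a1 and Aldh1a2 at P30. So did each pericyte marker and the fibroblast markers Pdgfra, Lum, Col1a1, Col1a2 and Col3a1. Of the other fibroblast markers, Dcn and Fbln1 were lowest in P30 replicate 3 and Pi16 in P30 replicate 2. The 5 mesothelial and keratocyte markers, led by the dehydrogenase Aldh3a1, summed to 17.7, 46.2 and 22.3 at P30, in the order of Aldh1a1 and Aldh1a2. At P5 they summed to between 0 and 0.95, with Wt1 at 0 in every isolation. Of the tested markers, 2 of 8 were higher at P30 for fibroblasts, 0 of 7 for pericytes (5 at an unadjusted p under 0.05 in limma) and 1 of 3 for the mesothelial and keratocyte list, whose 3 tested genes entered only through P30 and could only be found higher.

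The 8 RPE markers, led by Ttr, summed to between 91.3 and 178 at P5 and to 3939, 2228 and 554 at P30, and 6 of 7 tested were higher at P30. That is the order of Rdh10, which RPE is known to express. Photoreceptor markers ran in the same order at P30 (366 to 41.8, beside 2.70 to 9.60 at P5), as did pigment cell markers, led by Dct (1270 to 132, beside 102 to 468), Schwann cell markers, led by Pmp22 (1212 to 877, beside 191 to 318), and the Müller glia and neuron markers, led by Apoe (4771 to 3207, beside 1386 to 2374). Smooth muscle markers, led by Acta2, summed to between 304 and 1069 at P30 beside 88.4 to 179 at P5, and haematopoietic markers, led by Lyz2, to between 337 and 844 beside 655 to 885. Of the tested markers, 3 of 6 photoreceptor, 0 of 6 pigment cell (1 at an unadjusted p under 0.05 in limma), 2 of 6 Schwann cell, 1 of 4 Müller glia and neuron, and 1 of 4 smooth muscle genes rose, whereas 2 of 7 haematopoietic genes fell. All 6 photoreceptor genes, 2 of the 7 RPE genes, 2 of the 6 Schwann cell genes and 1 of the 4 Müller glia and neuron genes entered only through P30. At P5, Aldh1a2, Aldh1a3, Rdh10 and Rarg had replicate 1 highest and replicate 3 lowest. The summed RPE, pericyte, smooth muscle, pigment cell, haematopoietic, Schwann cell, and Müller glia and neuron markers ran in that order too. It was thus not particular to any of these lists. At P30 the orders of Aldh1a3, Dhrs3, Crabp2, Rarb, Rarg and Cyp26b1 matched none of the lists, that of the endothelial markers included. The part of other cells in the rise of the dehydrogenases, or in the level of any of the retinoic acid genes, was not tested.

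**Figure D4:**
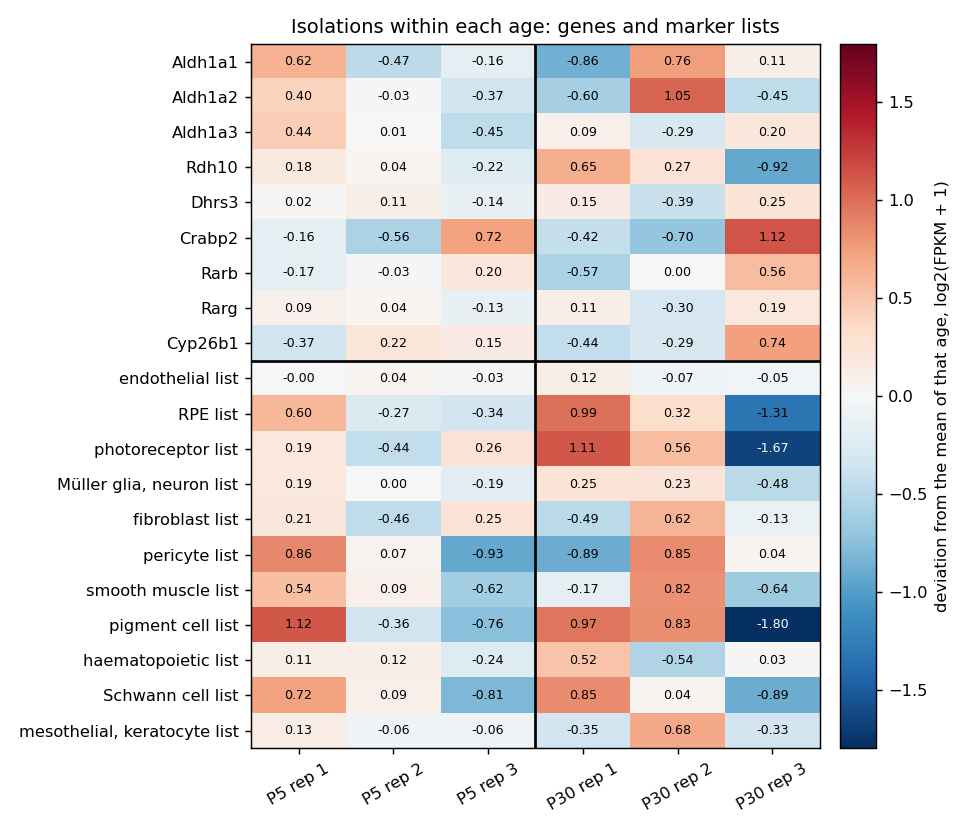
Deviation of each isolation from the mean of its age, in log2(FPKM + 1), for 9 of the genes (Crabp1, at 0 in 5 isolations, is left out) and for the mean over each marker list. In the P30 columns Aldh1a1 and Aldh1a2 peak in replicate 2 with the fibroblast and pericyte lists, and Rdh10 is highest in replicate 1 and lowest in replicate 3, as is the RPE list.

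Beyond the 10 genes, 53 other genes of retinoid uptake, metabolism, reception and response were taken as a list of the pathway, all present in the tables, 10 of them at 0 in every isolation. Of the 34 tested, 7 rose and 0 fell, beside 5.89% and 5.82% of all genes tested. At an unadjusted p under 0.05 in limma, 13 were higher and 2 lower, beside 20.7% and 28.8% of all genes tested. The median log2 fold change of the 34 was 0.27, beside -0.10 over all genes tested. Of the 34, 4 entered only through P30 and could only be found higher, among them 1 of the 7, Lrat. Among genes of uptake and storage, 3 of 8 were higher at P30. These were the retinol-binding protein receptor Stra6 (27.0 ± 7.41 to 107 ± 43.2 FPKM, SD, n = 3; log2 fold change 1.89, adjusted p = 0.00562 in limma), the retinol esterifying enzyme Lrat (3.70, adjusted p = 0.00639) and the carrier Ttr (3.77, adjusted p = 0.00674).

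Among retinol and retinal enzymes 1 of 9 was higher at P30, the RPE retinol dehydrogenase Rdh5 (13.3 ± 6.13 to 185 ± 112, SD, n = 3; log2 fold change 3.57, adjusted p = 0.00192 in limma). Stra6, Lrat, Ttr and Rdh5 are all among the RPE markers above, and each was highest in P30 replicate 1 and lowest in replicate 3. The sum of the RPE markers has the same order but includes these genes, so that likeness is partly built in. Adh5, an alcohol dehydrogenase, had the highest level of this group and a log2 fold change of -0.19 (adjusted p = 0.168 in limma). Of 7 receptor and corepressor genes, 0 passed both limits (2 higher and 1 lower at an unadjusted p under 0.05 in limma), with Rxra, the partner of the retinoic acid receptors, at 167 ± 10.3 and 170 ± 10.6 (SD, n = 3; log2 fold change 0.02, 95% interval -0.21 to 0.26) and the corepressor Ncor1 at -0.21 (adjusted p = 0.212). Rara, the third receptor of the family, was higher at P30 in every isolation by less than 2-fold (0.48, SE 0.10, adjusted p = 0.00931 in limma).

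Among genes known to respond to retinoic acid, 3 of 10 tested were higher at P30, beside 5.89% of all genes tested. Tgm2, a transglutaminase, had an FPKM of 276.25, 269.03 and 251.00 at P5 and of 774.47, 968.30 and 618.21 at P30 (a log2 fold change of 1.54, SE 0.16, adjusted p = 0.000589 in limma). Rarres2, which encodes chemerin, had 64.23, 37.05 and 24.14 at P5 and 196.37, 537.25 and 282.76 at P30 (2.97, SE 0.44, adjusted p = 0.00231 in limma). This was the order of Aldh1a1 and of the summed fibroblast markers at P30. Meis1, a homeobox factor, rose from 47.4 ± 4.58 to 110 ± 40.7 (SD, n = 3; 1.15, adjusted p = 0.00923). For each of these every P30 isolation lay above every P5 isolation, as for 6 of the 10 tested targets and 22.0% of all genes tested. Of the 14 listed targets, 4 were at 0 in every isolation. The spans of Tgm2, Rarres2, Stra6, Lrat, Ttr and Rdh5 each overlap another gene of the mm9 annotation. For Stra6 and Rdh5 such a gene lies on the same strand. Whether exons overlap was not checked, and reads from shared bases cannot be told from those of the overlapping gene. Meis1 was not checked for overlap.

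**Figure D5:**
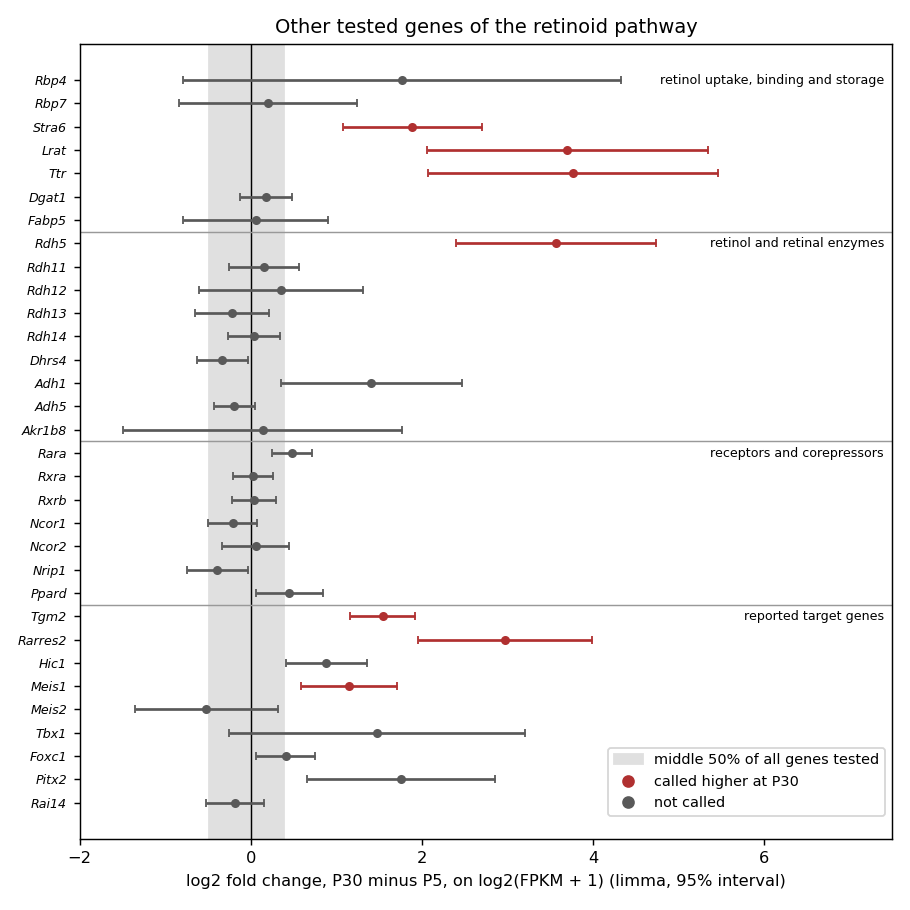
Log2 fold change, P30 minus P5, on log2(FPKM + 1) for tested genes of the wider retinoid pathway, with 95% intervals from limma, grouped by role; red marks the 7 genes higher at P30 and the grey band the middle 50% of all genes tested. The red genes are Stra6, Lrat, Ttr, Rdh5, Tgm2, Rarres2 and Meis1.

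The genes most like each dehydrogenase over the 6 isolations were sought among all genes tested, by the root mean square difference of log2(FPKM + 1) after centring. For Aldh1a1 they were Edn3 (0.107), Abca8a (0.253) and G0s2 (0.267). Edn3, the gene of endothelin 3, had an FPKM of 91.24, 53.33 and 56.70 at P5 and of 375.70, 1092.74 and 691.93 at P30. Its isolations thus stood in the order of Aldh1a1 at both ages, at a level more than 10 times as high. For Aldh1a2 the nearest were Cyfip2 (0.106), Adra2b (0.154) and Usp2 (0.158), each highest in P30 replicate 2. For Aldh1a3 they were Fam70b (0.117), the Notch target Hey2 (0.119) and Tppp (0.133). With 6 isolations in 2 ages, such likeness rests mostly on the difference between ages.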

How the data were processed

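RNAseq of sorted choroid ECs was available for 3 independent isolations per age. The authors used CASAVA 1.8.2 and FastQC, aligned reads to mm9 with TopHat, calculated levels with CuffLinks (GC and upper quartile normalization), and deposited 1 FPKM value per gene symbol and isolation. No versions are given for TopHat or CuffLinks in the sources used here. Counts were not used here, so depth is unknown, no counting interval is given, and a value of 0 need not mean absence.

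Groups came from the sample labels. In R 4.3.3, limma 3.58.1 was run on log2(FPKM + 1), using lmFit and a trended eBayes, for genes whose mean FPKM reached 5 at either age, with Benjamini-Hochberg adjustment over all of them. The pseudocount of 1 understates changes of low genes. The fit was tested on simulated data. Ratios between 2 genes were compared by exact permutation (two-sided), with 0.1 as the smallest possible p. Other steps used Python 3.11.15, pandas 2.3.3, numpy 2.4.6, scipy 1.17.1 and biopython 1.88.

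The genes, pathway lists and marker lists were chosen from general knowledge with earlier results of these data known. Named were all 10 genes, Aldh1a7, in each pathway list the differentially expressed genes and the 2 with the highest mean, the 3 genes most like each differentially expressed member, and in each marker list the gene of highest mean at P30. Some genes that this rule names are not reported here. Rara, Cdh5, Wt1 and the promoter of Cyp26a1 were added after their values had been seen. Gene positions were matched by symbol to the mm9 annotation of GENCODE, and promoter windows came from RefSeq (GRCm38.p6). Coding bases were aligned pairwise from the mm9 annotation. Alternatives were other pseudocounts, filters, scalings, variance priors, limits, a replicate block, and each isolation left out in turn.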

Additional observations from a re-analysis of the deposited data

How the results depend on the processing

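The difference in Aldh1a1, Aldh1a2, Aldh1a3, Rdh10 and Dhrs3 kept its direction under the 10 of 17 alternatives that change the estimate, and so did the 4 ratios under their 8. For these genes the ages did not overlap, so leaving out an isolation or changing the pseudocount could not have reversed the direction. Nor could leaving out an isolation have reversed the ratio of Aldh1a2 to Aldh1a1. With 3 of the 9 genes higher at P30 in the reported fit, the count was 5 at an adjusted p under 0.05 with no limit on size, 1 with a replicate block, and 0 to 3 when an isolation was left out (1 without P5 replicate 1, 1 without P5 replicate 2, 0 without P5 replicate 3). The count of genes higher at P5 was 0 throughout in limma. For the 34 other pathway genes, 7 in the reported fit, it was 3 with no trend, 11 at an adjusted p under 0.05, and 1 to 6 when an isolation was left out (3, 1 and 1 without P5 replicates 1, 2 and 3, and 4 without P30 replicate 2). Over all genes, leaving out an isolation gave 396 to 849 genes higher at P30 and 291 to 754 higher at P5, beside 735 and 726. At an adjusted p under 0.05 there were 2011 and 2794. Rarb reversed to 0.026 without P30 replicate 1, with a range of -0.54 to 0.026, and Crabp2 to -0.27 without P30 replicate 3, with a range of -0.27 to 0.65. The cause was not tested.

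Aldh1a2 lost its place past the limits under 8 of 17 alternatives and Aldh1a3 under 7, at adjusted p values then between 0.0105 and 0.0415 and between 0.0120 and 0.0324 in limma (over all alternatives from 0.00467 and from 0.00589), whereas Aldh1a1 lost it under 1. The labels do not say whether isolations of the same replicate number were paired between the 2 ages. Correlations of their deviations over all genes tested (-0.06, -0.09 and -0.03) cannot decide it, as pairing may touch only some genes. With the replicate block the SE fell for Aldh1a2, Rdh10, Crabp2, Rarb and Cyp26b1 and rose for Aldh1a1, Aldh1a3, Dhrs3 and Rarg. The block left Aldh1a1 alone past the limits (adjusted p in limma 0.0105 for Aldh1a2 and 0.0210 for Aldh1a3). Scaling to equal medians moved the median of all genes from -0.10 to -0.01 and the share of differentially expressed genes that were higher at P30 from 50.3% to 58.2%. With 3 isolations per age of unknown depth, the spread between isolations limits the precision throughout.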
